A study of Mus musculus with 4 samples.

Results

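The genes described here were 36 genes of sterol and fatty acid metabolism, chosen by symbol among the 29676 gene names on the arrays and followed with every probe that carried their symbol, 53 probes in all. They covered the mevalonate pathway up to squalene (8 genes), the oxygen-dependent sterol steps (4), the other steps from squalene to cholesterol (6), the regulators of the pathway (5), genes of sterol transport, efflux and lipoproteins (5), fatty acid synthesis and elongation (4) and the oxygen-dependent desaturases (4). The cells were astrocyte-enriched cultures (AECs), that is, mixed glial cultures from the cerebral cortex of newborn ICR mice. All cultures, untreated ones included, had received PLX3397, an inhibitor of the receptor on which microglia depend for survival. Untreated AECs (n = 2) were compared with AECs exposed for 15 h to oxygen–glucose deprivation (OGD), in medium without glucose and under hypoxia (n = 2). According to the methods, wells came from independent cultures of different pups. The study also describes that oligodendrocytes remained in the cultures and that some cells detached under OGD.

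Cholesterol is made from acetyl-CoA through mevalonate and squalene, and several of the steps after squalene consume molecular oxygen, as do the desaturases that put double bonds into fatty acids. The pathway is governed by SREBP transcription factors, which SCAP carries out of the endoplasmic reticulum when sterols are low and which the INSIG proteins hold back when sterols are high. In the brain, where blood lipoproteins hardly enter, astrocytes make much of the cholesterol and export it through ABC transporters on particles that carry apolipoprotein E.

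The arrays after OGD were dimmer as a whole. The 75th percentile of the processed signal, which is the brightness of a spot after background subtraction, differed by −1.37 on the log2 scale, while the spiked-in control RNAs, of which 9 of 10 probes were well above background, differed by −0.085 on average. The 4 arrays shared 1 slide and 1 scan. Relative to the 75th percentile of each array, which is the scale used here unless another is named, the median log2 fold change (OGD over untreated) was 0.16 over the 21048 genes tested, each by its brightest probe. Scaling on the spiked-in RNAs lowered every log2 fold change by 1.29 and gave a median of −1.13. In such bulk samples, fewer cells of a type and less of a transcript per cell cannot be told apart. A call means an adjusted p under 0.05 in limma over all probes tested. By this limit 37.1% of all genes were higher and 27.8% were lower after OGD, and with a fold change above 10 as well the shares were 0.708% and 0.561%. Counted by probe, 37.9% were higher and 27.1% lower.

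Among the cell type markers, the 10 astrocyte markers were all well above background on every array. Their summed level, in multiples of the 75th percentile, was 168 and 149 on the untreated and 228 and 233 on the OGD arrays. The microglial list summed to 2.32 and 2.04 against 6.74 and 6.52, and 6 of its 7 markers were above background on every array. In this list *Cd68* rose by 3.14 on the log2 scale, whereas *Cx3cr1* was not well above background after OGD. The oligodendrocyte list summed to 19.7 and 17.3 against 29.5 and 32.5, with 8 of 9 markers above background throughout. The sums of the NG2 glia list (both of its 2 markers above background) were 0.26 and 0.28 against 0.35 and 0.31, and those of the neuron list (5 of 7) were 8.65 and 8.26 against 9.37 and 9.05. The fibroblast list (3 of 4) had sums of 11.4 and 8.0 against 2.10 and 6.04, the first OGD array lacking *Col1a1*, whose spot was an outlier there. *Slc17a7* of the neurons and *Cldn5* of the endothelium were not well above background on any array, and the endothelial sums were 0.030 and 0.024 against 0.026 and 0.028. All these sums are on the 75th-percentile scale, and the median log2 fold change of the astrocyte list was 0.67 on it but −0.62 under spike-in scaling. On the 75th-percentile scale 6 of the 10 astrocyte markers were called higher and 1 lower. In the oligodendrocyte list these counts were 4 and 2 of 9, in the NG2 glia list 1 and 1. The neuron list had 3 and 2 of 6 tested and the fibroblast list 0 and 1 of 4. Over all genes 37.1% were higher and 27.8% lower. Changes ranged from −1.52 to 1.13 (astrocyte), −2.50 to 1.21 (oligodendrocyte) and −1.27 to 0.88 (NG2 glia). The part of these other cells in the results below was not tested.

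All 36 genes were tested, and the brightest probe of each was well above background on all 4 arrays. By that probe, 19 genes (52.8%) were higher after OGD, 6 (16.7%) were lower and 11 did not pass the limit, beside 37.1% and 27.8% over all genes. The median log2 fold change was 0.44 against 0.16 over all genes tested, but with normexp background correction, which adds an offset of 50 to each signal, it was 0.45 against 0.51. With normexp 22 genes (61.1%) were higher and 6 lower, beside 60.5% and 20.8% of all genes, so that the share of higher genes was then close to that of the array. Quantile normalization gave 13 (36.1%) and 9 (25.0%), beside 28.4% and 31.1%. Under spike-in scaling 1 gene was higher and 28 were lower, with 3.84% of all genes higher and 83.3% lower. The median was then −0.85 against −1.13 over all genes, since this scaling moves every gene alike. The sign of most of the smaller increases thus rested on the scaling. *Insig1* was the only one of the 36 above a 10-fold change, and also the only one called higher under spike-in scaling. In raw processed signal, 33 of the 36 genes were lower on both OGD arrays than on both untreated arrays, *Insig1* was higher on both, and *Msmo1* and *Sc5d* overlapped between the groups. For comparison, 90.8% of all genes tested were lower in processed signal on both OGD arrays and 4.78% were higher.

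**Figure D1:**
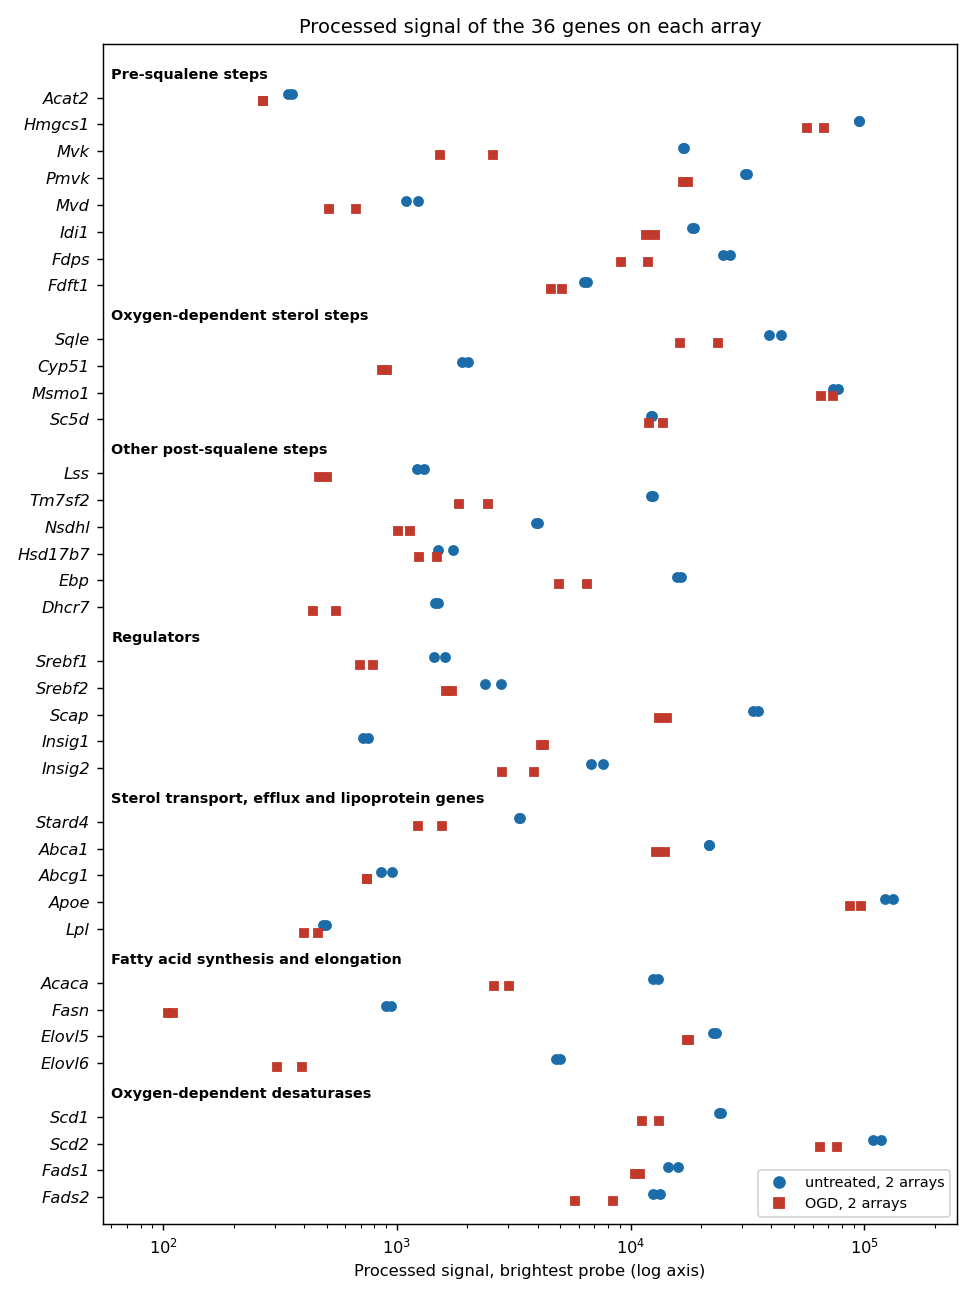
Processed signal of the brightest probe of each of the 36 genes (log axis), with 2 untreated arrays as blue circles and 2 OGD arrays as red squares, grouped by role. The red squares lie to the left for 33 genes and to the right only for *Insig1*; positions of different genes cannot be compared with each other, since probes differ in brightness.

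**Figure D2:**
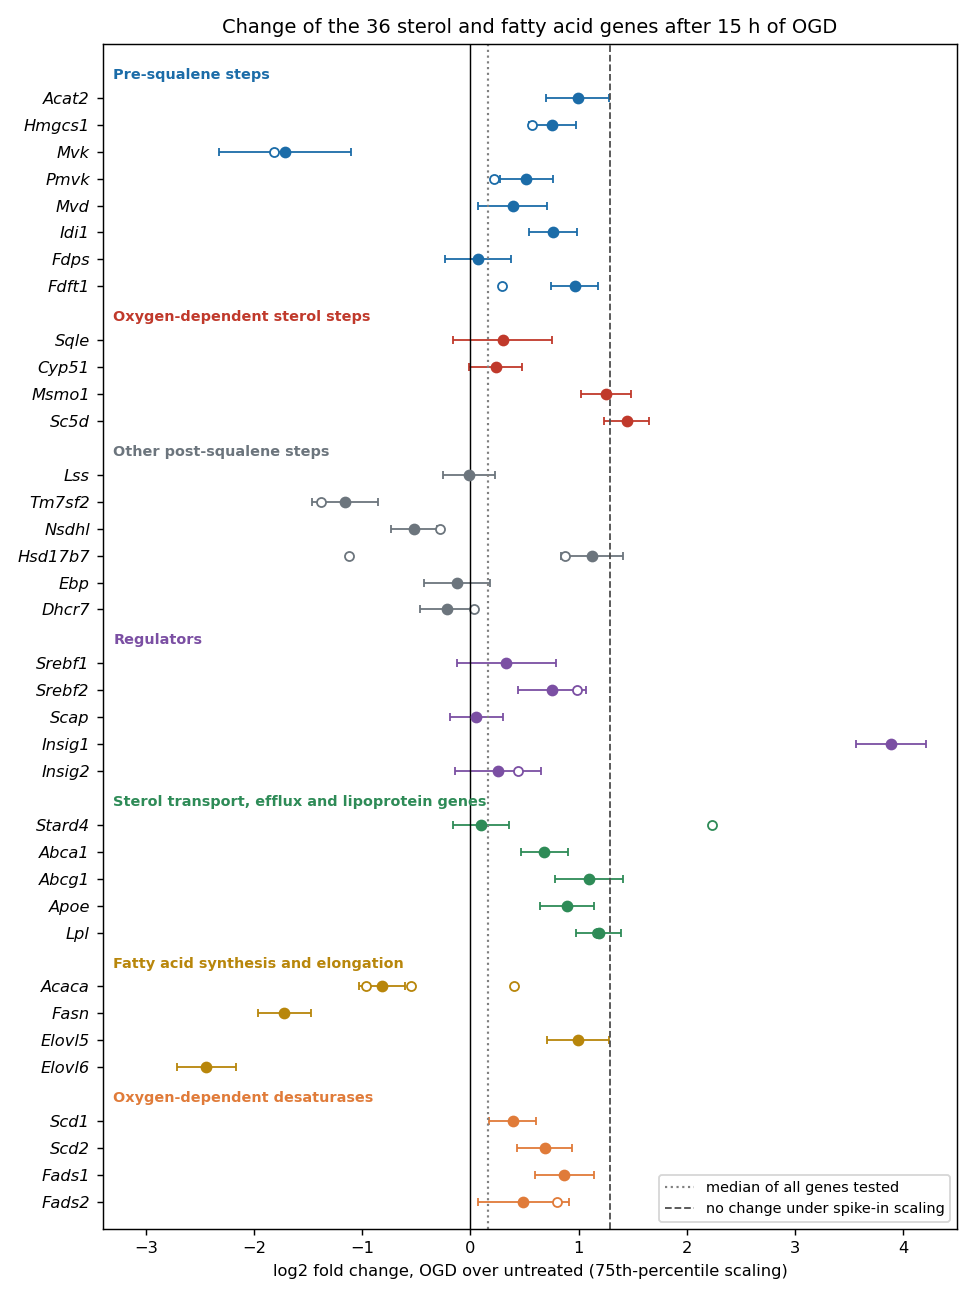
Log2 fold change of the 36 genes after OGD with the arrays scaled on the 75th percentile. Filled points are the brightest probe with its 95% confidence interval from limma, open points are the other probes of the gene, the dotted line is the median of all genes tested (0.16) and the dashed line (1.29) is where a gene would show no change under spike-in scaling. *Insig1* lies far to the right of both lines and *Sc5d* just past the dashed line, while *Mvk*, *Tm7sf2*, *Fasn* and *Elovl6* lie below −1.

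The early part of the pathway moved in 2 directions, with *Mvk* lower and most of its neighbors higher. Of the 8 pre-squalene genes, 6 (75%) were higher, beside 37.1% of all genes, and 1 was lower. With normexp 6 were higher too, beside 60.5%. Their median log2 fold change was 0.64, against 0.16 over all genes, or 0.55 against 0.51 with normexp. Under spike-in scaling 7 were lower, as were 83.3% of all genes, and the median was −0.65 against −1.13. *Mvk* encodes mevalonate kinase, which phosphorylates mevalonate. Its processed signal was 16724 and 16868 in untreated AECs and 2571 and 1521 after OGD, so that both OGD arrays were far below both untreated ones. The log2 fold change was −1.71 (standard error 0.22, adjusted p = 0.00495 in limma), or 3.28-fold lower, and the other probe, 241 bases upstream, was at −1.81 (standard error 0.096, adjusted p = 0.00101). Only 6.48% of all genes had a lower log2 fold change than *Mvk*. *Hmgcs1*, the cytosolic HMG-CoA synthase that makes the precursor of mevalonate, had signals of 94687 and 95099 against 67419 and 56745. This was a smaller loss than that of the array as a whole, which put *Hmgcs1* at 0.76 (standard error 0.077, adjusted p = 0.00298), with a dimmer probe at 0.57. The sign of *Hmgcs1* depended on the scaling, at −0.15 with quantile normalization and −0.53 with spike-in scaling.

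The remaining pre-squalene genes lay between 0.070 and 0.99 on the same scale. *Acat2*, the cytosolic acetyl-CoA acetyltransferase that opens the pathway, had signals of 343 and 354 against 267 and 268, a log2 fold change of 0.99 (standard error 0.10, adjusted p = 0.00318). *Fdft1*, the squalene synthase that closes this part, was at 0.96 (standard error 0.076, adjusted p = 0.00184) by the brighter probe, while a dim one at a signal near 50 was at 0.29 and did not pass the limit, although it did with normexp, at 0.87. *Idi1*, the isomerase of isopentenyl diphosphate, was at 0.76 (adjusted p = 0.00315). The kinase *Pmvk* was at 0.52 (adjusted p = 0.00995) by its brightest probe, and its second probe, at 0.22, did not pass (adjusted p = 0.0986). *Mvd*, the decarboxylase after it, was at 0.39 with an adjusted p of 0.0441 and lost its call in several settings. *Fdps*, the farnesyl diphosphate synthase, was at 0.070 (95% interval −0.24 to 0.38) and did not pass. In the usual order of the reactions, genes on both sides of *Mvk* were thus higher by the same scale on which *Mvk* was lower.

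The promoters of *Hmgcs1* and *Mvk* are shown because these genes encode neighboring parts of 1 pathway and were called in opposite directions. Each window runs from 250 bases before to 50 bases after the RefSeq gene start on GRCm38.p6, on the strand of the gene, at chr13:119690101-119690400 (+) for *Hmgcs1* and chr5:114444019-114444318 (+) for *Mvk*. Capitals mark the sterol regulatory element TCACNCCAC and the NF-Y site CCAAT on either strand.
Hmgcs1: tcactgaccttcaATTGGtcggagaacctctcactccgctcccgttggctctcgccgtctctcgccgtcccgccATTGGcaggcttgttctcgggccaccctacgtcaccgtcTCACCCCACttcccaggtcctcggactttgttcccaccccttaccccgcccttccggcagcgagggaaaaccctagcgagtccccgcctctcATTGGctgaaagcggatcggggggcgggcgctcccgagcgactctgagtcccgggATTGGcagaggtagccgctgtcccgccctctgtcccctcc
Mvk: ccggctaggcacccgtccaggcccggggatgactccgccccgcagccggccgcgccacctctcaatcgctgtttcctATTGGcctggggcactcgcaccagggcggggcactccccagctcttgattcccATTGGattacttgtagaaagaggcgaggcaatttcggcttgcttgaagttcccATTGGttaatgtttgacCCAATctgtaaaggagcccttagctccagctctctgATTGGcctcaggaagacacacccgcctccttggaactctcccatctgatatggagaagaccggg
The *Hmgcs1* window held the sterol regulatory element at position −137, counted from 1 at the gene start with −1 just before it, and 4 NF-Y sites. That of *Mvk* held 5 NF-Y sites, and the letters of the sterol regulatory element were not in it. Windows were at hand for 27 of the 36 genes. The sterol regulatory element was in the windows of 1 of these 27 genes (3.70%), beside 1.44% of all genes with a window, and the NF-Y site was in the windows of 20 of the 27 (74.1%), beside 41.1%. By window, 1 of the 37 windows of these genes held the sterol regulatory element and 21 held the NF-Y site. Over all 32851 windows the shares were 1.24% and 37.4%. These are matches of letters only, and genes that rose (*Idi1*, *Msmo1*), fell (*Mvk*, *Tm7sf2*, *Fasn*) or did not pass the limit (*Cyp51*, *Lss*) all held an NF-Y site.

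Among the oxygen-dependent sterol enzymes, the later steps *Msmo1* and *Sc5d* were higher while *Sqle* and *Cyp51* did not pass the limit, though with quantile normalization *Msmo1* (0.37) lay close to *Cyp51* (0.23). Of the 4 genes 2 (50%) were higher and 0 lower, beside 37.1% and 27.8% of all genes. Their median log2 fold change was 0.77 against 0.16, or 0.71 against 0.51 with normexp. With normexp 3 were higher, beside 60.5% of all genes, and *Cyp51* passed the limit at 0.23 (adjusted p = 0.0491 in limma). Under spike-in scaling 2 were lower, beside 83.3% of all genes, and the median was −0.52 against −1.13. *Sc5d*, the sterol C5-desaturase, had signals of 12170 and 12332 in untreated AECs and 13814 and 11961 after OGD. Its groups overlapped in raw signal although most of the array had dimmed, and the log2 fold change was 1.44 (standard error 0.074, adjusted p = 0.000984 in limma), higher than in 94.3% of all genes. With spike-in scaling *Sc5d* was at 0.15 and did not pass (adjusted p = 0.222). *Msmo1*, the methylsterol oxidase that begins removal of the methyl groups at C4, had signals of 77297 and 73292 against 73440 and 65004. Its log2 fold change was 1.25 (standard error 0.082, adjusted p = 0.00138), 2.38-fold, and it was −0.039 with spike-in scaling. *Sqle*, the squalene epoxidase and the first step to use oxygen, had signals of 43976 and 38979 against 23722 and 16238. It was at 0.30 (standard error 0.16, 95% interval −0.16 to 0.76, adjusted p = 0.184), the OGD arrays differing from each other more than those of *Sc5d*. *Cyp51*, the lanosterol demethylase, had signals of 1890 and 2016 against 910 and 861 and was at 0.23 (standard error 0.088, 95% interval −0.016 to 0.48, adjusted p = 0.0848).

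Whether these steps moved apart was also read within each array, where any scaling that shifts a whole array cancels. The log2 ratio of *Sc5d* to *Sqle* was higher by 1.15 (standard error 0.20) after OGD, and that of *Msmo1* to *Cyp51* by 1.02 (standard error 0.097). Quantile normalization does not shift an array evenly, and under it the first gap was 1.40 but the second only 0.14. In both pairs the 2 OGD arrays lay above the 2 untreated ones. The same held for *Hmgcs1* over *Mvk*, at 2.47 (standard error 0.25), or 1.83 with quantile normalization. With 2 arrays a group the exact permutation test cannot give a two-sided p below 0.333, which was its value for each of the 5 pairs compared, and the pairs had been chosen after their values were seen. Between the role groups, the median of the oxygen-dependent sterol steps was 0.14 above that of the pre-squalene steps, a gap that is small beside the range of 0.23 to 1.44 within the former. It was 0.94 above that of the other post-squalene steps, and 0.63 with quantile normalization.

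**Figure D3:**
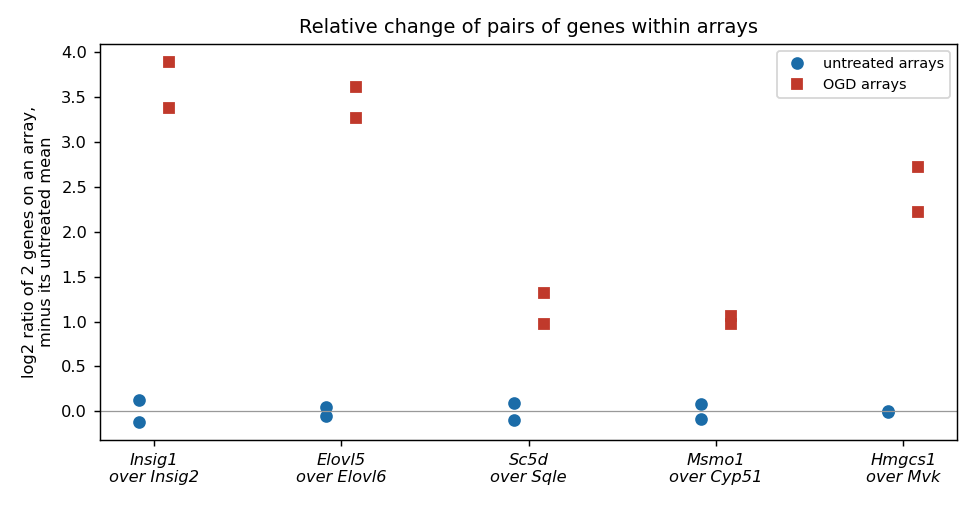
Log2 ratio of 2 genes on the same array, minus the mean ratio of the untreated arrays, for 5 pairs of genes. Blue circles are untreated and red squares OGD arrays, 2 of each; all red squares lie above the blue circles, by about 1 for the oxygen-dependent sterol pairs and by more than 3 for *Insig1* over *Insig2* and *Elovl5* over *Elovl6*.

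Of the post-squalene enzymes that do not themselves consume oxygen, *Tm7sf2* and *Nsdhl* were lower, *Hsd17b7* was higher by its brightest probe, and *Lss*, *Ebp* and *Dhcr7* did not pass the limit. Of these 6 genes 1 (16.7%) was thus higher and 2 (33.3%) were lower, beside 37.1% and 27.8% of all genes. Their median was −0.17 against 0.16, and under spike-in scaling −1.46 against −1.13, with 5 lower, beside 83.3% of all genes. *Tm7sf2*, a sterol C14-reductase, had signals of 12398 and 12207 against 2444 and 1850. Its log2 fold change was −1.16 (standard error 0.11, adjusted p = 0.00244 in limma), and a second probe 659 bases upstream was at −1.38. *Nsdhl*, which removes the C4 carboxyl group formed after the *Msmo1* step, had signals of 4011 and 3941 against 1136 and 1010 and was at −0.52 (standard error 0.076, adjusted p = 0.00709), with the other probe at −0.28, and at −0.0030 with normexp. *Hsd17b7*, the ketosteroid reductase of the same demethylation, was read by 3 probes that disagreed. On the brightest, at chr1:171883182-171883241 of mm9, signals were 1501 and 1730 against 1481 and 1244, a log2 fold change of 1.13 (standard error 0.10, adjusted p = 0.00236), and a second probe was at 0.87. The third, assigned to another transcript and lying 2450 bases further upstream at chr1:171885632-171885691, fell from 189 and 158 to 37.4 and 25.0, a change of −1.13 (standard error 0.19, adjusted p = 0.00981). With normexp this dim probe was at −0.16 and lost its call (adjusted p = 0.234), and with the mean over its probes *Hsd17b7* was at 0.29 and did not pass (adjusted p = 0.0615). *Lss*, which closes the sterol rings, was at −0.013 (95% interval −0.25 to 0.23), *Ebp*, the sterol isomerase, at −0.13 (−0.43 to 0.18) and *Dhcr7*, the reductase of the last double bond in one of the final routes to cholesterol, at −0.21 (−0.47 to 0.040). The second *Dhcr7* probe, with a signal near 24 before OGD, was the only one of the 53 not well above background on every array. It was at 0.030, and at 1.04 with normexp.

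Among the regulators *Insig1* stood apart. It encodes an endoplasmic reticulum protein that retains the SCAP–SREBP complex when sterols are plentiful, and it is itself a classical SREBP target. The processed signal of its single probe, at chr5:28404246-28404305 of mm9, was 719 and 754 in untreated AECs and 4133 and 4275 after OGD. The groups were clearly separate and the replicates close together. The log2 fold change was 3.89 (standard error 0.12, 95% interval 3.56 to 4.21, adjusted p = 0.000731 in limma), 14.8-fold, higher than in 99.6% of all genes. Over the 15 alternative settings it ranged from 2.60 with spike-in scaling to 4.01, and it stayed past the limit in all of them. *Insig2*, the paralog with the same retaining role, had signals of 7633 and 6754 against 3871 and 2813. It was at 0.25 (standard error 0.14, 95% interval −0.15 to 0.65, adjusted p = 0.189), and at 0.44 by a second probe 1048 bases upstream (adjusted p = 0.0605). Within arrays, the ratio of *Insig1* to *Insig2* was higher by 3.63 (standard error 0.28) after OGD.

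The other regulators changed little beside *Insig1*. *Srebf2*, which encodes the SREBP most tied to cholesterol synthesis, had signals of 2374 and 2783 against 1722 and 1623. It was at 0.75 (standard error 0.11, adjusted p = 0.00745), with a second probe at 0.98. *Srebf1*, whose products lean to fatty acid synthesis, was at 0.33 (95% interval −0.13 to 0.79, adjusted p = 0.147), with signals of 1440 and 1611 against 694 and 790. *Scap*, the escort of the SREBPs, had signals of 35208 and 33433 against 14277 and 13260 and was at 0.055 (95% interval −0.19 to 0.30, adjusted p = 0.608). Of the 5 regulators 2 (40.0%) were thus higher, beside 37.1% of all genes, and 0 were lower. Their median was 0.33 against 0.16, but 0.35 against 0.51 with normexp. Scaled on the spiked-in RNAs, 4 were lower and only *Insig1* was higher, beside 83.3% and 3.84% of all genes. The median was then −0.96 against −1.13.

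The promoters of *Insig1* and *Insig2* are shown because the paralogs moved apart within arrays. The windows are those of RefSeq on GRCm38.p6, at chr5:28071162-28071461 (+) for *Insig1* and, for the first of 3 starts listed for *Insig2*, at chr1:121332540-121332839 (−), both on the strand of the gene. Capitals mark the NF-Y site CCAAT, the core of the hypoxia response element ACGTG and the E-box CACGTG, on either strand.
Insig1: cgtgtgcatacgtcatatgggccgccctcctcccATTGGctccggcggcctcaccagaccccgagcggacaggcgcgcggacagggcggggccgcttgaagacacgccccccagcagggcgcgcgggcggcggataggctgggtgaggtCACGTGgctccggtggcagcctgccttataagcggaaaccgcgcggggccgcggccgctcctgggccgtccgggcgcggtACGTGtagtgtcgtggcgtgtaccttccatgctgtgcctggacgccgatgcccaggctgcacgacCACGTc
Insig2: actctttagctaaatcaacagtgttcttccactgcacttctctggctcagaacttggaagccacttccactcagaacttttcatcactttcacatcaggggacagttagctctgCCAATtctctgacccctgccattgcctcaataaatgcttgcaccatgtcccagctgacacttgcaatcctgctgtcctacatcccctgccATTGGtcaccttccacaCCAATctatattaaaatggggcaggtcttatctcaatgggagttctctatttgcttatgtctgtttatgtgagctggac
The *Insig1* window held 1 NF-Y site at position −216, an E-box at −101, whose letters include the hypoxia core on both strands, and the hypoxia core again at −21 and, on the opposite strand, at 45. In the *Insig2* window shown NF-Y sites were found at −136, −46 and −29, and neither the hypoxia core nor the E-box was among its letters. The other two *Insig2* windows held none of the motifs searched. The hypoxia core was in the windows of 8 of the 27 genes with a window (29.6%), beside 21.8% of all genes with one, and the E-box in those of 7 (25.9%), beside 8.09%. The genes with the hypoxia core were *Abca1*, *Dhcr7*, *Elovl5*, *Elovl6*, *Hsd17b7*, *Insig1*, *Sc5d* and *Scap*, which include genes that were higher, lower and without a call.

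Genes of sterol efflux and of lipoproteins were higher on the 75th-percentile scale, with 4 of 5 (80.0%) called, beside 37.1% of all genes. Their median was 0.89 against 0.16, or 0.83 against 0.51 with normexp, where again 4 were higher, beside 60.5%. Under spike-in scaling 0 were higher and 3 lower, beside 83.3% of all genes lower, and the median was −0.40 against −1.13. *Apoe*, the main apolipoprotein of astrocytes, had signals of 132202 and 122394 against 96306 and 86353. Its log2 fold change was 0.89 (standard error 0.089, adjusted p = 0.00282 in limma), and it was −0.095 with quantile normalization. *Abca1*, which loads cholesterol onto apolipoproteins, had signals of 21585 and 21565 against 13971 and 12771 and was at 0.68 (standard error 0.078, adjusted p = 0.00385), but at 0.15 with no call under quantile normalization (adjusted p = 0.195). *Abcg1*, which passes cholesterol to lipidated particles, had signals of 855 and 952 against 747 and 742 and was at 1.096 (standard error 0.11, adjusted p = 0.00294). *Lpl*, the lipoprotein lipase that frees fatty acids from triglycerides, had signals of 481 and 498 against 459 and 402, a log2 fold change of 1.18 (standard error 0.075, adjusted p = 0.00131), and its second probe, 5217 bases upstream, was at 1.17. These 4 genes lost less signal than the array as a whole, and none gained signal on both OGD arrays. Microglia too express genes of this group. The summed level of the microglial list went from 2.32 and 2.04 to 6.74 and 6.52, mostly through *Cd68*. Of its 7 markers 3 were higher and 1 was lower, beside 37.1% and 27.8% of all genes, with a median of 0.18 against 0.16. With normexp 5 were higher and 0 lower, beside 60.5% and 20.8%, with a median of 1.11 against 0.51. Under spike-in scaling 1 was higher and 4 were lower, beside 3.84% and 83.3%. The part of microglia in the values of this group was not tested.

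*Stard4*, a carrier of cholesterol within the cell, was read by 2 probes of 1 transcript that did not match. The brighter had signals of 3323 and 3375 against 1558 and 1228 and was at 0.097 (95% interval −0.16 to 0.36, adjusted p = 0.400). The dimmer went from 100 and 104 to 205 and 168, the only member probe besides that of *Insig1* with more signal on both OGD arrays, and was at 2.23 (standard error 0.082, adjusted p = 0.000754), 4.70-fold. With the mean over its probes *Stard4* was at 1.16 and passed the limit.

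**Figure D4:**
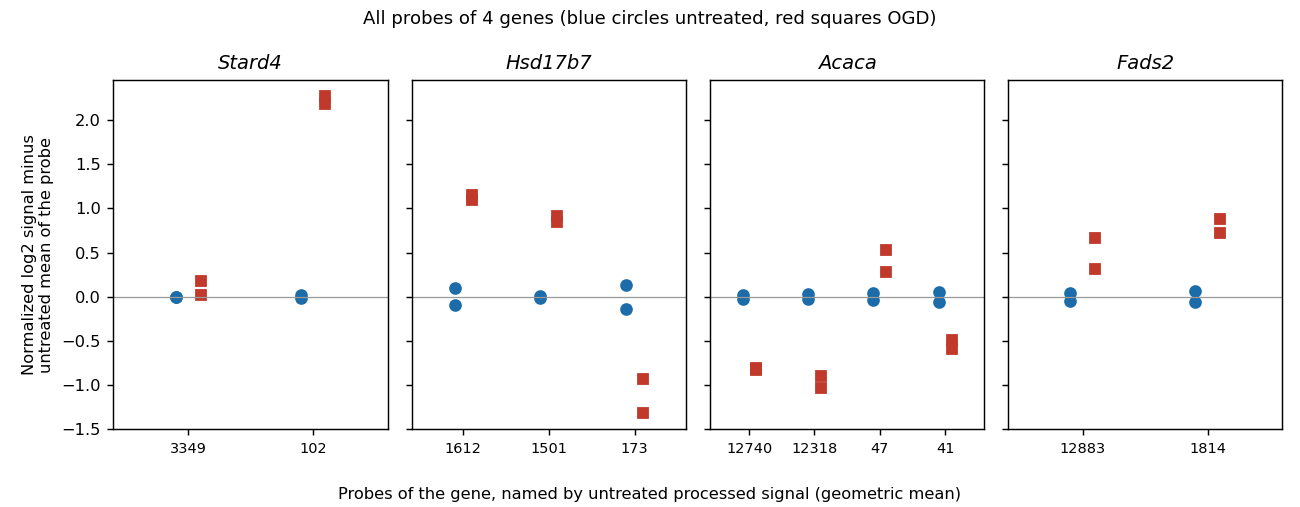
Normalized log2 signal of every probe of *Stard4*, *Hsd17b7*, *Acaca* and *Fads2*, minus the untreated mean of the probe, with untreated arrays as blue circles and OGD arrays as red squares (2 of each). Probes are ordered and named by their untreated signal; the dimmer *Stard4* probe rises while the brighter stays near 0, 1 of 3 *Hsd17b7* probes falls, and 1 of 4 *Acaca* probes is above 0.

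*Acaca*, *Fasn* and *Elovl6* were lower after OGD. Of the 4 genes of fatty acid synthesis and elongation among the 36, 3 (75%) were thus lower and 1 was higher, beside 27.8% and 37.1% of all genes, and their median of −1.27 was the lowest of the 7 role groups. Under spike-in scaling these 4 had a median of −2.56 against −1.13, with 0 higher and 3 lower, beside 3.84% and 83.3% of all genes. A further list of 14 genes of fatty acid synthesis, elongation and activation had a median of 0.67 against 0.16. Of these 14 genes 10 were higher and 3 lower, beside 37.1% and 27.8%. Under spike-in scaling their median was −0.62 against −1.13, with 0 higher and 10 lower, beside 3.84% and 83.3%. *Fasn*, the fatty acid synthase, had signals of 894 and 944 in untreated AECs and 111 and 105 after OGD. The change was −1.72 (standard error 0.087, adjusted p = 0.000967 in limma), 3.29-fold lower. *Elovl6*, which lengthens palmitate to stearate, went from 4798 and 4960 to 394 and 306, with a change of −2.44 (standard error 0.098, adjusted p = 0.000777), 5.43-fold lower. This was the lowest value among the 36 genes by their brightest probes, and 2.30% of all genes were lower still. *Elovl5*, the elongase of polyunsaturated fatty acids, moved in the opposite direction, with signals of 23253 and 22401 against 17678 and 17483 and a log2 fold change of 0.997 (standard error 0.10, adjusted p = 0.00296), which was −0.29 under spike-in scaling. Within arrays the ratio of *Elovl5* to *Elovl6* was higher by 3.44 (standard error 0.18) after OGD.

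*Acaca*, the acetyl-CoA carboxylase that commits carbon to fatty acids, was read by 4 probes. The brightest had signals of 12463 and 13024 against 3009 and 2594, a change of −0.82 (standard error 0.076, adjusted p = 0.0025). A probe that overlaps it but for 1 base was at −0.96, and a dim one 3455 bases upstream was at −0.55 but reversed to 0.70 with normexp (adjusted p = 0.000318). The fourth, 206072 bases upstream at chr11:84009021-84009080 of mm9, had signals of 48.5 and 46.4 against 23.8 and 24.8 and was at 0.41 (standard error 0.12, adjusted p = 0.0458). The overlapping bright probes were lower relative to the array, while the direction of the dim one near them rested on the background correction.

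The oxygen-dependent desaturases were all at positive values, with 3 of 4 (75%) called higher and 0 lower, beside 37.1% and 27.8% of all genes. Their median was 0.59 against 0.16, but 0.53 against 0.51 with normexp and −0.0090 against −0.023 with quantile normalization. Under spike-in scaling all 4 were called lower, beside 83.3% of all genes, and the median was −0.70 against −1.13. *Scd2*, the main stearoyl-CoA desaturase of the brain, had signals of 117818 and 108662 against 76312 and 64834 and was at 0.69 (standard error 0.090, adjusted p = 0.00538). *Scd1*, its homolog, had signals of 23788 and 24355 against 13206 and 11213 and was at 0.39 (standard error 0.076, adjusted p = 0.0151). Quantile normalization put them at −0.26 and −0.15. *Fads1*, the delta-5 desaturase of polyunsaturated fatty acids, had signals of 14455 and 15878 against 10941 and 10428 and was at 0.87 (standard error 0.096, adjusted p = 0.00357). *Fads2*, which acts before it, had signals of 12403 and 13382 against 8432 and 5788 and was at 0.49 by the brightest probe (standard error 0.15, adjusted p = 0.0503), just outside the limit, and at 0.80 (standard error 0.10, adjusted p = 0.00501) by the other. The gap between the medians of the desaturases and of synthesis and elongation was 1.86, and 1.34 with quantile normalization.

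**Figure D5:**
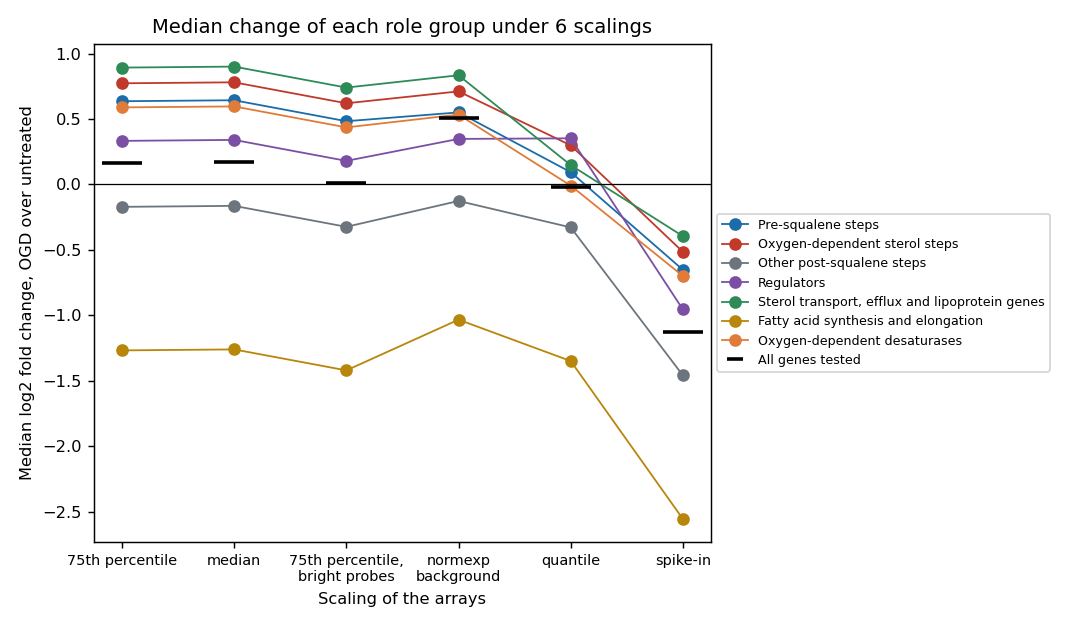
Median log2 fold change of each of the 7 role groups under 6 scalings of the arrays, with the median of all genes tested as a black bar. Fatty acid synthesis and elongation is the lowest group in every scaling (−1.27 on the 75th percentile, −2.56 on spike-in controls), and the order of the groups above it changes with quantile normalization.

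Among the 66 other lipid genes examined beside these, 32 (48.5%) were higher, 16 (24.2%) were lower and 18 did not pass, beside 37.1% and 27.8% over all genes. Their median was 0.29 against 0.16, and with normexp 0.21 against 0.51. Scaled on the spiked-in RNAs, 3 of the 66 were higher and 53 lower, beside 3.84% and 83.3% of all genes. The increases were led by *Vldlr*, a receptor of apolipoprotein E particles, at 2.89 (signals 3882 and 4157 against 12775 and 10357), the adipogenic nuclear receptor *Pparg* at 2.64 (1032 and 1063 against 2649 and 2405) and *Hilpda*, a hypoxia-inducible lipid droplet protein, at 2.54 (1781 and 1776 against 4055 and 3948). All 3 gained raw signal and were at 1.60, 1.35 and 1.25 with spike-in scaling. *Mbtps2*, the protease that makes the second cleavage of SREBPs, followed at 1.44 and *Pltp*, the phospholipid transfer protein, at 1.41. The largest decreases were in *Acat1*, the mitochondrial acetyl-CoA acetyltransferase, at −2.90, *Cpt2*, which returns fatty acids to CoA inside mitochondria, at −2.54, *Acss1*, the mitochondrial acetyl-CoA synthetase, at −2.15, *Ppara*, the nuclear receptor of fatty acid oxidation, at −2.11 and *Acacb*, the acetyl-CoA carboxylase of the mitochondrial surface, at −1.79. *Acat1* was thus lower on the scale on which its cytosolic counterpart *Acat2* was higher.

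By class, fatty acid synthesis, elongation and activation had 10 of 14 genes higher and 3 lower, sterol and lipoprotein traffic 7 of 13 and 4, and fatty acid oxidation 5 of 9 and 2. Among 13 further regulators 3 were higher and 5 lower, among 7 genes of esterification, storage and lipolysis 3 and 0, among 6 genes of precursor supply 3 and 2, and among 4 other sterol and isoprenoid genes 1 and 0. Over all genes the shares were 37.1% higher and 27.8% lower. In 6 of the 66 genes probes were called in opposite directions, as in *Hsd17b7* and *Acaca* above. The share of such genes over the whole array was not counted. *Mbtps1*, the first SREBP protease, was at −0.78 by its brightest probe and at 1.25 by a dim one. *Osbp*, an oxysterol-binding protein, was at −0.90 and 2.09, and *Rxra*, the partner of many nuclear receptors, at 1.31 and −0.67, the latter at 0.55 with normexp. *Ppara* was at −2.11, −3.18 and 0.47, *Acsl1*, a fatty acyl-CoA synthetase, at −0.39 and 0.60, and *Ggps1*, the geranylgeranyl diphosphate synthase, at −0.30 and 0.98 with its brightest probe at 0.13.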

How the data were processed

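Total RNA of 2 untreated and 2 OGD cultures was labeled with Cy3 and each sample was hybridized to its own array with a single color. The authors deposited, per the file headers, an intensity per spot, the processed signal of Agilent Feature Extraction 11.5.1.1 (version from the submitters' processing notes), from which background had been subtracted, with marks for outlying and well-above-background spots. The deposited values are not normalized between arrays. By the methods, the authors then normalized to the 75th percentile and called genes by an unpaired test, Benjamini–Hochberg adjusted, and a fold limit of 10.

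From these, log2 was taken, control and outlier spots were left out, spots of a probe were averaged, and the 75th percentile of each array was subtracted. The moderated test of limma 3.58.1 (R 4.3.3; lmFit, eBayes) was run on the 28254 probes that were well above background on the 2 arrays of either group, with Benjamini–Hochberg adjustment over all of them. Each gene was counted by its brightest probe, by mean over all arrays. The steps were tested on simulated data. The remaining computing used Python 3.11.15 with scipy 1.17.1 for the exact test, pandas 2.3.3 and numpy 2.4.6 for tables, and matplotlib 3.10.9 for plots. Gene names and mm9 probe positions are those of the files, and promoter windows are from RefSeq (GRCm38.p6). Named genes were every one of the 36 with every probe, and of the other lipid genes the 5 largest increases and decreases called and those with probes called in opposite directions. The members and lists were chosen with earlier results of these data known. The number of arrays limits the precision, and p-values measure the spread between these cultures only. The authors' other experiments were not analysed here.

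Alternatives were, for the signal, normexp background correction (offset 50) and the series table; for the scaling, quantile normalization, the median, bright probes only and spike-in controls; for the probes, no filter, well above background on every array, keeping outliers, and averaging a gene's probes; for the samples, leaving out each array and blocking on the replicate number; and for the test, the methods' t-test, a trended robust limma fit, fold limits of 10 and 2, and unadjusted p.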

Additional observations from a re-analysis of the deposited data

How the results depend on the processing

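Spike-in scaling changed the results most. It left 1 of the 36 genes higher and 28 lower, in place of 19 and 6. Role medians became −0.65 (pre-squalene), −0.52 (oxygen-dependent sterol steps), −1.46 (other post-squalene), −0.96 (regulators), −0.40 (transport and efflux), −2.56 (synthesis and elongation) and −0.70 (desaturases). The log2 fold changes that reversed under it were those of *Abca1* (−0.61), *Abcg1* (−0.19), *Acat2* (−0.30), *Apoe* (−0.40), *Cyp51* (−1.06), *Elovl5* (−0.29), *Fads1* (−0.42), *Fads2* (−0.80), *Fdft1* (−0.33), *Fdps* (−1.22), *Hmgcs1* (−0.53), *Hsd17b7* (−0.16), *Idi1* (−0.52), *Insig2* (−1.04), *Lpl* (−0.10), *Msmo1* (−0.039), *Mvd* (−0.90), *Pmvk* (−0.77), *Scap* (−1.23), *Scd1* (−0.90), *Scd2* (−0.60), *Sqle* (−0.99), *Srebf1* (−0.96), *Srebf2* (−0.54) and *Stard4* (−1.19). By construction it lowers every value by 1.29. Quantile normalization reversed *Apoe* (−0.095), *Fdps* (−0.46), *Hmgcs1* (−0.15), *Pmvk* (−0.099), *Scap* (−0.55), *Scd1* (−0.15) and *Scd2* (−0.26), and the cause was not tested. It gave 13 genes higher and 9 lower, and medians of 0.094, 0.30, −0.33, 0.15 and −1.35 for the pre-squalene, oxygen-dependent sterol, other post-squalene, transport and synthesis groups and −0.0090 for the desaturases. *Abca1* lost its call (0.15), and *Ebp* was called lower (−0.48). With normexp *Cyp51* (0.23), *Srebf1* (0.35) and *Fads2* (0.45) passed the limit as higher. The medians that moved with it were 0.55 (pre-squalene), −0.13 (other post-squalene), −1.03 (synthesis) and 0.53 (desaturases), while the median over all genes was 0.51. With the 75th percentile over bright probes *Dhcr7* was called lower (−0.37), and *Mvd* (0.24) and *Scd1* (0.24) lost their calls. The medians that moved were then 0.48, 0.62, −0.32, 0.74, −1.42 and 0.44 for the pre-squalene, oxygen-dependent sterol, other post-squalene, transport, synthesis and desaturase groups. With the mean over a gene's probes they were 0.51 (pre-squalene), −0.11 (other post-squalene), 1.096 (transport), −1.1 (synthesis) and 0.67 (desaturases), and *Hsd17b7* lost its call (0.29).

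A limit of 10-fold left 1 gene higher and 0 lower (6 lower at an unadjusted p under 0.05 without the fold limit, 5 by the methods' t-test), and a 2-fold limit left 6 higher and 4 lower. Leaving out 1 array at a time gave 15 to 21 genes higher and 5 to 6 lower. *Pmvk*, *Mvd*, *Nsdhl* and *Scd1* lost their calls without either untreated array (15 higher and 5 lower each time), *Srebf2* without untreated replicate 1, *Scd2* without untreated replicate 2 and *Mvd* without OGD replicate 1, whereas *Srebf1* passed without OGD replicate 1 and *Sqle* and *Fads2* without OGD replicate 2. Role medians then ranged from 0.61 to 0.65 (pre-squalene), 0.73 to 0.86 (oxygen-dependent sterol), −0.26 to −0.097 (other post-squalene), 0.35 to 0.52 (regulators), 0.83 to 0.96 (transport), −1.29 to −1.24 (synthesis) and 0.52 to 0.69 (desaturases). The post-squalene median was −0.26 without OGD replicate 1, and the regulators' 0.52. *Insig1*, *Mvk*, *Tm7sf2*, *Fasn*, *Elovl6* and *Acaca* kept direction and call in all 15 settings run for single genes, whereas *Mvd* did so in 7. Same-numbered arrays did not deviate together over the probes (correlation −0.057). With 2 arrays a group this cannot settle whether the numbers pair the samples. The replicate block gave 18 genes higher and 6 lower, *Mvd* losing its call. Signals near background limit the dim probes of *Dhcr7*, *Fdft1*, *Hsd17b7*, *Lpl* and *Acaca*.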
